A study of Arabidopsis thaliana with 8 samples.

Results

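Seedlings of a phyB mutant that had seen 1 h of red light were compared with wild-type seedlings taken straight from darkness. The question was which functions stood, in the red-lit mutant, at the level of a de-etiolated wild type and which stood closer to darkness. The comparison rests on 4 of the 8 libraries of the series, 2 of red-lit phyB and 2 of dark wild type, and on 20716 tested genes of 27416 transcript models. Another 2 libraries, of wild type given the same red light, served as the measure of the de-etiolated level. The remaining 2 libraries were of a phyA phyB double mutant given the same red light. They entered the statistical fit, the principal component analysis and a closing observation.

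Whole seedlings of Arabidopsis thaliana, ecotype Col-0, made up every group. Seeds on medium with 1% sucrose had 3 days of cold and 12 h of white light, and every group then had 5 days of darkness. The dark wild type (WT dark) had no further light. The phyB mutant (phyB red) and the lit wild type (WT red) received red light for 1 h (50 µmol per square metre and second). The phyB allele is not given in the sources used here. Dark phyB seedlings were not analysed here, so an effect of light and an effect of genotype cannot be told apart in a difference between phyB red and WT dark. The labels do not say whether the 2 libraries of a group came from separate seedling batches, so the p-values reflect spread among these libraries and that spread may be technical.

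Phytochromes are red and far-red photoreceptors that turn off dark growth when a seedling reaches the light. Active phytochrome removes PIF transcription factors, which hold greening genes back and keep elongation genes on in darkness, and it limits the COP1 and SPA complex that degrades light-promoting factors such as HY5. phyB is the main red-light receptor of light-grown plants, and phyA is abundant in dark-grown seedlings.

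Library totals ran from 15926547 to 22116924 reads, and 3 reads in a library equalled 0.136 to 0.188 CPM (counts scaled to a common library size with TMM factors). In a principal component analysis of all 8 libraries, the first component held 62.3% of the variance. On it WT dark lay at −44.57 and −44.29, WT red at 24.72 and 24.79, and phyB red at 33.84 and 33.72. On this component the red-lit mutant thus lay on the side of the lit wild type and farther from darkness than it. On the second, with 22.9% of the variance, it lay between the wild-type groups. There WT dark was at 18.85 and 18.89, phyB red at 9.709 and 9.509, and WT red at 2.926 and 2.852. The red-lit phyA phyB double mutant lay at −31.18 and −31.56 on the second component and at −14.08 and −14.12 on the first. The second component thus mainly set the double mutant apart and is not a scale from dark to light. Replicates lay so close, with a common biological coefficient of variation of 1.59%, that changes of a few percent passed the test.

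The mutated gene itself was checked first. PHYB transcripts stood at 62.3 and 64.3 CPM in phyB red, 80.7 and 81.4 in WT dark and 96.0 and 95.2 in WT red. They differed from WT dark by −0.35 ± 0.05 (log2 change ± SE, edgeR adjusted p = 1.47e-11) and from WT red by −0.59 ± 0.05 (7.3e-24), without overlap between the libraries. The transcript was present in the mutant, so with the allele not given its level checks the label only in part. PHYA stood at 703 CPM in both phyB libraries, between 834 and 828 in WT dark and 463 and 471 in WT red. PHYE, a minor phytochrome of the phyB type, rose from 14.3 and 13.6 to 23.0 and 21.7 CPM (0.67 ± 0.09, 1.87e-10). Of the 5 phytochrome genes 1 rose and 2 fell against WT dark, beside 27.5% and 27.1% of all tested genes.

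Against WT dark, 54.6% of all tested genes were called at an adjusted p below 0.05 (edgeR quasi-likelihood test), 27.5% higher and 27.1% lower. At least 2-fold, 8.01% were higher and 2.93% lower. Against WT red, 27.2% were called, 13.1% higher and 14.1% lower, and 1.13% were higher and 1.04% lower at least 2-fold. The median log2 change over all tested genes was 0.01 against WT dark and 0.00 against WT red. A gene was taken to be at the WT red level when the 95% interval of its log2 difference lay inside a 1.5-fold band. It was taken as above or below that level when the interval lay wholly outside the band, and as undecided otherwise. Of all tested genes 70.4% were within the band, 1.23% above it, 1.26% below it and 27.1% undecided. Genes that light did not move are within the band too, so each list is read below against both references. The counts of each list are to be read beside these shares of all tested genes. List members were chosen with earlier results of these data known, so the counts describe those members only. In whole seedlings, fewer cells of a type and less RNA per cell cannot be told apart.

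**Figure D1:**
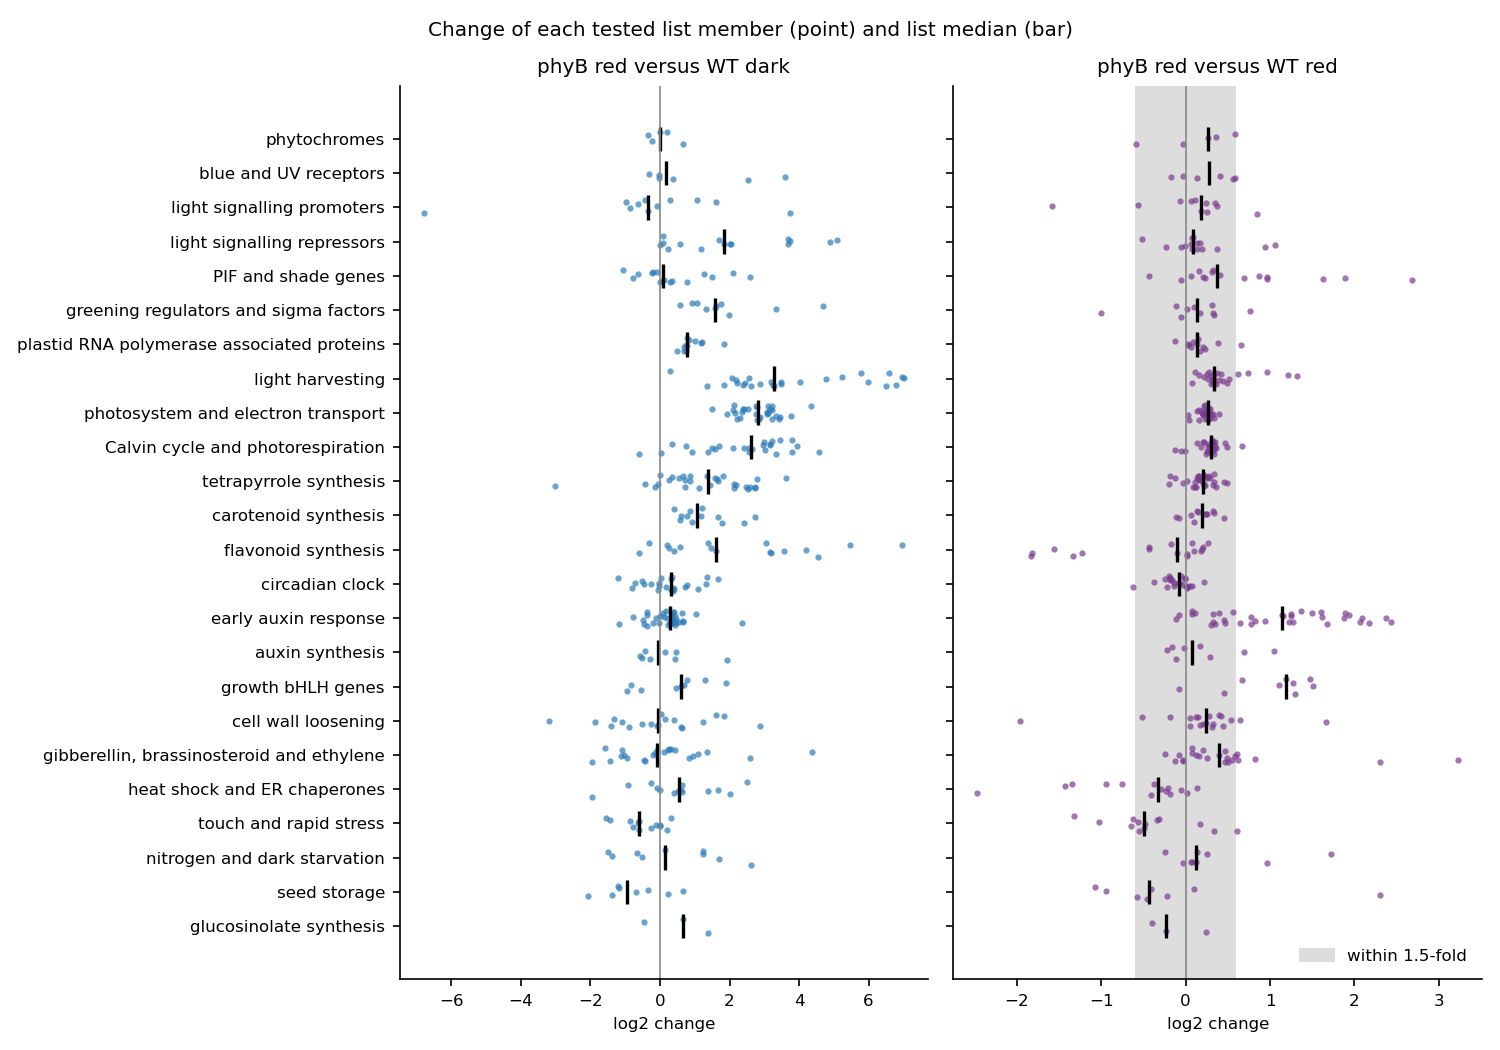
Log2 change of every tested member of 24 gene lists (points) with the list median (black bar), phyB red against WT dark on the left and against WT red on the right; the grey zone is the 1.5-fold band. Light harvesting, photosystem and Calvin cycle genes lie far to the right on the left panel (medians 3.28, 2.83 and 2.61) and inside or just above the band on the right panel, while early auxin and growth bHLH genes lie near 0 on the left (0.28 and 0.61) and beyond the band on the right (1.14 and 1.19).

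Most greening genes had left the dark level and stood within or above the 1.5-fold band around the lit wild type. CGA1 stood below it, though not with DESeq2, and PORB stood within it but near darkness. By contrast, 6 shade genes and most genes of the early auxin list stood above it and closer to darkness. LHCB3, an antenna protein of photosystem II, stood at 77.9 and 83.2 CPM in WT dark, 1306 and 1299 in phyB red and 1087 and 1090 in WT red. PIL1, a bHLH gene that is high in darkness and shade, stood at 25.4 and 25.5 CPM in WT dark, 15.9 and 16.7 in phyB red and 2.23 and 2.88 in WT red. IAA19, an auxin-induced Aux/IAA repressor, stood at 166 and 168, 125 and 132, and 53.3 and 54.6 CPM in the same order. LHCB3 was thus 16.2-fold above darkness, PIL1 1.56-fold below it and IAA19 1.31-fold below it. Placed on a scale from WT dark (0%) to WT red (100%) on log2 CPM, LHCB3 lay at 107%, PIL1 at 19.3% and IAA19 at 23.5%. This position is given only for genes whose WT groups differ at least 2-fold, and it carries no test.

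**Figure D2:**
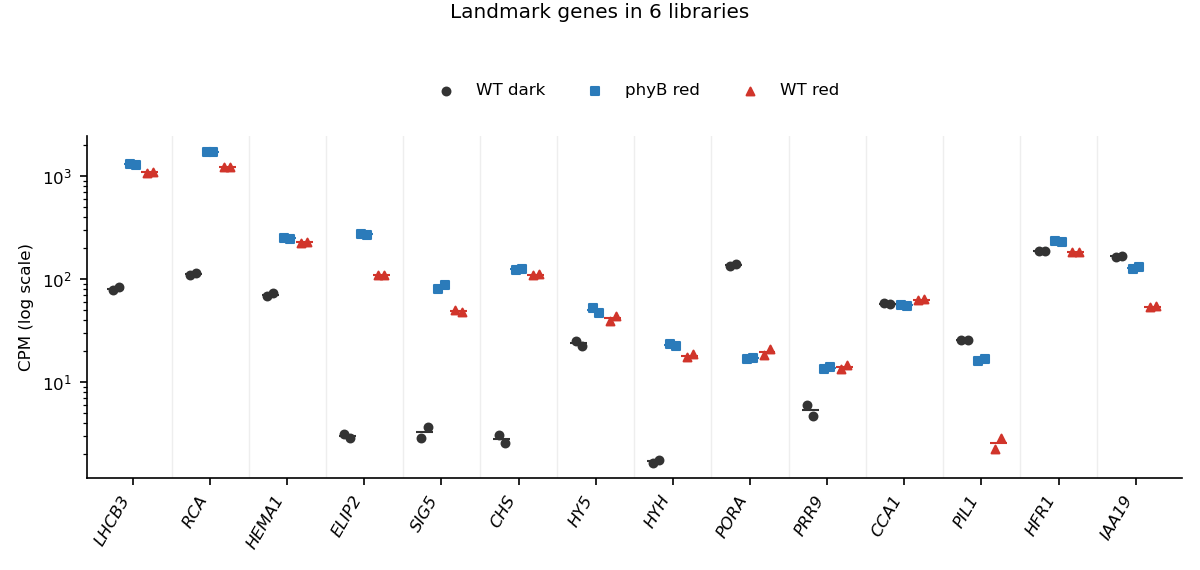
CPM (log scale) of 14 landmark genes in each of the 6 libraries, with a short line at the group mean of 2 libraries. phyB red (squares) sits at or above WT red (triangles) for LHCB3, RCA, HEMA1, ELIP2, SIG5 and CHS, and close to WT dark (circles) for PIL1 and IAA19, where WT red is 2.23 to 2.88 and 53.3 to 54.6 CPM.

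The 250 bases before the annotated start are shown for one gene of each kind, CHS, which reached the lit level, and IAA19, which did not. Both were read from the RefSeq genome TAIR10.1, in lower case with the searched motifs in capitals, except the ACGT core. That core was searched too but is left in lower case outside the G-box, as in CHS at −159 and −125. In CHS (chr5:4488226-4488475, plus strand) the capitals mark a G-box, CACGTG, at −233 and an evening element, AAATATCT, at −84. In IAA19 (chr3:5263751-5264000, plus strand) they mark the auxin element TGTCTC at −184, −145 and −128 and a G-box at −70. Positions count back from the annotated start and give the first base of the motif.
CHS: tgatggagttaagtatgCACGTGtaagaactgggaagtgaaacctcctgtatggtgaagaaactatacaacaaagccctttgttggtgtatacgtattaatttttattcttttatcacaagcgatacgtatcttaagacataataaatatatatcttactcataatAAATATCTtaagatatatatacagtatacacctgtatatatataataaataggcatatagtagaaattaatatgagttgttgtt
IAA19: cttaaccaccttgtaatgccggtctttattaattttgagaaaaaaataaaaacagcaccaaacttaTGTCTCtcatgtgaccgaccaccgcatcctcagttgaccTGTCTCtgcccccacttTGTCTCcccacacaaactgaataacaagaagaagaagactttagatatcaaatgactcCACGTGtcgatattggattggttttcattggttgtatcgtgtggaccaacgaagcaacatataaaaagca

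Motifs were counted on both strands in windows of 250 bases before to 50 after the start of 20499 tested genes, of which 8.82% held a G-box, 14.8% an I-box (GATAAG), 13.7% TGTCTC and 5.81% an evening element. The ACGT core, which is part of the G-box, was in 50.8%. Among photosystem genes 36.7% held a G-box and 53.3% an I-box, and among light-harvesting genes 26.9% held each. TGTCTC was in 37.8% of early auxin genes and 34.8% of gibberellin, brassinosteroid and ethylene genes. Clock promoters held a G-box in 45.8% and an evening element in 29.2%, and flavonoid promoters a G-box in 41.2%. These shares describe letters in a window and carry no test. The promoters of PIL1, LHCB3, HY5 and ELIP2 held none of the motifs marked in capitals in their 250 bases.

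Chlorophyll antenna genes rose as a whole list. All 26 light-harvesting genes rose against WT dark, 25 of them at least 2-fold, and the median log2 change was 3.28 against 0.01 over all genes. ELIP1 and ELIP2, which encode early light-induced proteins that bind pigments under light stress, stood at 1.65 and 1.61 and at 3.11 and 2.85 CPM in WT dark. In phyB red ELIP1 stood at 158 CPM in both libraries and ELIP2 at 277 and 269, against 68.1 and 68.3 and 109 in both libraries of WT red. ELIP1 was thus 96.5-fold and ELIP2 91.8-fold above darkness, and both lay above the band around WT red (1.21 ± 0.04, adjusted p = 9.22e-57, and 1.32 ± 0.03, 2.04e-71). The largest rises of the list were those of LHCB1.1 (4.46 and 4.73 to 599 and 596 CPM), LHCB1.4 (4.86 and 5.80 to 667 and 662) and LHCB2.2 (7.76 and 8.70 to 911 and 902). These antenna genes have near-identical copies, so reads may be split among them in a way set by the authors' counting.

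Relative to the lit wild type, 20 light-harvesting genes lay within the band, 5 above it and 1 was undecided. The 5 above were ELIP1, ELIP2, LHCB1.4 (0.74 ± 0.02), LHCB2.2 (0.62 ± 0.01) and LHCB2.3 (0.96 ± 0.03), a second-family antenna gene at 287 and 282 CPM against 143 and 149. By the test, 24 of the 26 were higher than in WT red, with a median of 0.34. With a coefficient of variation of 0.1 assumed between biological replicates, 7 of the 26 were called higher, 8 lay within the band and 3 above it. Positions of the 25 members with a value ran from 105% to 126%.

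Photosystem subunits and electron carriers also left the dark level as a whole list. All 30 rose at least 2-fold against WT dark (median 2.83), and all 30 lay within the band around WT red. PSAH2, a small subunit of photosystem I, stood at 11.4 and 13.0 CPM in WT dark, 245 and 251 in phyB red and 212 and 216 in WT red. PSAK, another subunit of photosystem I, rose from 32.1 and 28.7 to 421 and 414 CPM, and PSBO2, of the oxygen-evolving complex, from 24.1 and 25.8 to 264 and 284. The largest difference from WT red was that of PSAN, a lumenal photosystem I subunit, at 374 and 375 CPM against 280 and 289 (0.40 ± 0.03, adjusted p = 1.29e-28). By the test, 28 of the 30 were higher than in WT red by a median of 0.26, and 0 with the assumed coefficient of variation of 0.1, where 26 lay within the band.

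Carbon fixation rose with the photosystems, with a few members apart. Of 26 Calvin cycle and photorespiration genes 24 rose, 21 at least 2-fold, 1 fell and 1 was not called (median 2.61). RCA, the activase of Rubisco, stood at 109 and 115 CPM in WT dark, 1709 and 1720 in phyB red and 1227 and 1220 in WT red, which is 15.3-fold above darkness and 0.49 on the log2 scale above the lit wild type. FBA1, a plastid aldolase, rose from 7.66 and 6.01 to 157 and 170 CPM, and CP12-2, a small regulator of the cycle, from 3.81 and 3.71 to 50.6 and 54.2. Its homologue CP12-1 stood at 265 and 272 CPM in WT dark and 276 and 274 in phyB red (0.03 ± 0.03, 0.279), and its estimate was −0.02 with upper-quartile scaling. The gene that fell was GLYK, the glycerate kinase that closes photorespiration, from 302 and 305 to 204 and 200 CPM (−0.59 ± 0.03, edgeR adjusted p = 2.52e-43). Against WT red, 24 members lay within the band, 1 was undecided, and RBCS2B, a Rubisco small subunit with near-identical copies, lay above it at 735 and 732 against 462 and 459 CPM. By the test 23 were higher than WT red and 1 lower (median 0.30). With the assumed coefficient of variation of 0.1, 13 lay within the band, 0 above it and 13 were undecided.

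Tetrapyrrole synthesis, which makes chlorophyll and heme, was mostly at the lit level. Of 30 genes 25 rose, 2 fell and 3 were not called (median 1.39), and 28 lay within the band around WT red with 2 undecided. Without WT dark replicate 2 or with upper-quartile scaling the test called 4 members lower than WT dark. HEMA1, the glutamyl-tRNA reductase that opens the pathway, rose from 68.6 and 73.4 to 249 and 248 CPM (1.81 ± 0.03, adjusted p = 7.13e-87), against 227 and 230 in WT red. GUN4, an activator of magnesium chelatase, rose from 10.7 and 10.6 to 134 and 129 CPM, CHLI1, a subunit of that chelatase, from 22.6 and 25.0 to 163 and 166, and DVR, the divinyl reductase, from 4.01 and 3.44 to 24.7 and 24.8. The largest excess over WT red was that of CHLI2, a second copy of that subunit (0.49 ± 0.08, 2.15e-07).

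Protochlorophyllide oxidoreductases make the light-requiring step. PORA, the form of dark-grown seedlings, stood at 135 and 141 CPM in WT dark, 16.8 and 17.2 in phyB red and 18 and 21 in WT red. It fell 8.12-fold against darkness (−3.02 ± 0.05, edgeR adjusted p = 6.62e-92), and lay at 108% of the way to WT red. The difference from WT red missed the threshold (−0.20 ± 0.08, 0.0506) but passed it without WT red replicate 1 (0.0119) and with a replicate block (0.0414). PORB stood at 193 and 190 CPM in WT dark, 186 and 182 in phyB red and 133 and 136 in WT red. It was called higher than WT red (0.45 ± 0.03, edgeR adjusted p = 5.46e-26) but lay within the band. The difference from darkness missed the threshold (−0.06 ± 0.03, edgeR adjusted p = 0.104) and passed it without WT dark replicate 2 (0.0192) or with upper-quartile scaling (0.000672). HY1, the heme oxygenase that starts synthesis of the phytochrome chromophore, was the second member that fell, from 277 and 280 to 211 and 204 CPM (−0.42 ± 0.03).

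Plastid isoprenoid and carotenoid enzymes rose in all 12 cases (median 1.05), and 11 of the 12 lay within the band around WT red. By the test 7 were higher than WT red and 1 lower (median 0.19), and fewer were higher without WT red replicate 1 or phyB replicate 1. PSY, phytoene synthase and the entry to carotenoids, rose from 23.5 and 26.4 to 167 and 162 CPM against 129 and 133 in WT red. BCH2, a carotene hydroxylase, rose from 1.80 and 1.07 to 7.48 and 7.91 CPM, and LUT2, the lycopene epsilon-cyclase, from 10 and 10.4 to 36.2 and 33.4. ABA1, zeaxanthin epoxidase, rose from 73.9 and 67.3 to 166 and 160 CPM. It was the 1 member called lower than WT red (−0.11 ± 0.03, edgeR adjusted p = 0.00942), a call lost without WT red replicate 1 (0.451) or phyB replicate 2 (0.198).

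Regulators of greening all rose, and they differed in where they ended. All 10 GLK, GATA and sigma factor genes rose (median 1.59), 8 lay within the band, 1 above it and 1 below it. SIG5, a light-induced sigma factor of the plastid RNA polymerase, stood at 2.86 and 3.65 CPM in WT dark, 80.5 and 87.4 in phyB red and 50.7 and 48.4 in WT red, which is above the band (0.76 ± 0.06, adjusted p = 1.59e-25). It was the only member above, and without phyB replicate 2 the count above was 0. CGA1, a GATA factor that promotes chloroplast development, stood at 0.250 and 0.430, 3.06 and 3.78, and 6.99 and 6.83 CPM in the same order. It rose by 3.33 on the log2 scale against darkness and lay below the band around WT red (−1.0 ± 0.19, 6.93e-06), at 76.6% of the way. CGA1 was the only member below, and the count below was 0 without either WT red library, without phyB replicate 1 and with DESeq2. SIG1 rose from 22.1 and 25.2 to 92.9 and 94.7 CPM. With the assumed coefficient of variation of 0.1 the band placed 0 members above and 1 below.

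The 12 proteins associated with the plastid-encoded RNA polymerase all rose too, by a smaller median of 0.78, and 11 lay within the band around WT red. PTAC7 rose from 8.77 and 7.09 to 26.0 and 30.5 CPM. FLN1, a fructokinase-like protein, rose from 2.96 and 3.71 to 7.67 and 7.64 CPM, and the thioredoxin TRXZ from 4.86 and 4.3 to 9.60 and 11.1. FSD2, an iron superoxide dismutase, stood at 5.26 and 3.65 CPM in WT dark, 6.49 and 6.16 in phyB red and 4.04 and 3.95 in WT red. Its rise over WT dark (0.49 ± 0.17, edgeR adjusted p = 0.00964) was lost without WT dark replicate 2 (0.344), and it was the undecided member.

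Light-promoting transcription factors did not move as one. Of 11 genes 4 rose, 6 fell and 1 was not called against WT dark (median −0.35). Of all tested genes 27.5% rose and 27.1% fell. Around WT red 8 lay within the band, beside 70.4% of all tested genes, and 3 were undecided. By the test 5 were higher than WT red and 0 lower, and fewer were higher without either WT red library or without phyB replicate 1. HY5, the bZIP factor that promotes light development, stood at 25.2 and 22.5 CPM in WT dark, 52.5 and 46.9 in phyB red and 39.7 and 43.5 in WT red. Its homologue HYH stood at 1.65 and 1.77, 23.6 and 22.6, and 17.7 and 18.6 CPM. Both rose against darkness (1.05 ± 0.07, adjusted p = 1.76e-29, and 3.75 ± 0.15, 8.48e-50). Both were called slightly higher than WT red (0.25 ± 0.06 and 0.35 ± 0.10), calls that leaving out WT red replicate 1 ended (0.0934 for HY5 and 0.0678 for HYH), as did leaving out phyB replicate 1 for HY5 (0.0798). BBX22, a B-box partner of HY5, rose from 26.2 and 26.5 to 80.0 and 81.7 CPM.

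Among the members that fell, BBX23, another B-box factor, had 112 and 140 reads in WT dark, 1 and 1 in phyB red and 3 and 3 in WT red. It was 125-fold below darkness (95% counting interval 34.2 to 1040), and low in both red-lit groups. The phyA import genes FHY1 and FHL both fell against WT dark and were both called higher than WT red. FHY1 fell from 40.2 and 38.0 to 22.3 and 21.4 CPM, against 18.9 and 17.9 in WT red (0.24 ± 0.08, edgeR adjusted p = 0.0243), at 77.4% of the way. Its call against WT red was lost when any 1 of the 4 red-lit libraries was left out (adjusted p from 0.0555 to 0.163). FHL fell from 9.82 and 7.52 to 5.43 and 5.67 CPM and stayed above WT red at 3.16 and 3.01 (0.85 ± 0.19, edgeR adjusted p = 0.000142), at 43.2% of the way. LAF1, a MYB factor of far-red responses, fell from 3.36 and 2.63 to 1.75 and 1.35 CPM.

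Repressors of light signalling had risen almost as a list. Of 15 genes 12 rose, 0 fell and 3 were not called (median 1.83), and 11 lay within the band around WT red. The B-box gene BBX25 stood at 1.3 and 0.644 CPM in WT dark, 34.3 and 33.9 in phyB red and 31.8 and 32.9 in WT red, and BBX30 at 0.250 and 0.0537, 5.92 and 3.91, and 5.39 and 5.89. The log2 rise of BBX25 was 5.10 and ranged from 4.68 to 5.69 without one WT dark library, and that of BBX30 was 4.89 and ranged from 4.2 to 6.29. RUP2, which inactivates the UV-B receptor, rose from 2.1 and 2.58 to 28.7 and 31.6 CPM against 24.4 and 22.4. Its paralog RUP1 rose from 11.4 and 10.9 to 44.8 and 45.2 CPM and stood above the band around WT red, at 22.2 and 20.9 (1.06 ± 0.08, adjusted p = 5.13e-26). BBX28, a repressor of HY5, was the second member above the band. It stood at 34.2 and 32.9 CPM in WT dark and 37.1 and 35.3 in phyB red (0.10 ± 0.07, 0.197), with 19 and 18 in WT red.

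Of 6 blue-light and UV receptor and photolyase genes 3 rose, 1 fell and 2 were not called (median 0.18). Of all tested genes 27.5% rose and 27.1% fell. CRY3, a cryptochrome of organelles, rose from 2.66 and 2.47 to 29.6 and 32.6 CPM against 20.2 and 21.8 in WT red. The photolyase gene PHR1 rose from 1.00 and 0.913 to 6.24 and 4.99 CPM. UVR8, the UV-B receptor, fell from 87.0 and 84.6 to 68.2 and 68.7 CPM, and CRY1, the blue-light receptor of seedlings, rose from 112 and 116 to 146 and 149.

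Shade genes stood mostly above the lit wild type, and PIF genes mostly at its level. Of 16 genes in that list 6 rose, 4 fell and 6 were not called against WT dark (median 0.08), 12 were higher than WT red and 1 lower (median 0.37), and 6 lay above the band, against 1.23% of all tested genes. The members above the band were PIL1 and PAR1, HLH proteins of the shade response, and ATHB-4, HAT1, HAT2 and HAT3, homeodomain factors induced by shade. PAR1 stood at 22.3 and 20.5 CPM in WT dark, 19.5 and 20.6 in phyB red and 5.34 and 5.52 in WT red, so it was not called against darkness (−0.09 ± 0.09, adjusted p = 0.419) and was 1.89 ± 0.12 above WT red (2.99e-30). HAT2 stood at 86.0 and 86.1, 73.7 and 74.8, and 39.2 and 36.9 CPM. ATHB-4, HAT1 and HAT3 were not called against WT dark (0.121, 0.0734 and 0.692).

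Other shade genes went part of the way. ATHB-2, the homeodomain gene used as a marker of shade, fell from 51.6 and 52.7 to 23.5 and 26.0 CPM and lay above WT red at 15.1 and 15.7 (0.69 ± 0.09, adjusted p = 7.15e-12), at 61.2% of the way. PAR2 fell from 33.0 and 29.8 to 19 and 18 CPM, against 14.3 and 13.2, at 64.5%. PIL1 fell by 0.64 on the log2 scale against darkness (SE 0.09, 5.62e-10) and was 2.69 ± 0.15 above WT red (8.17e-36), the largest such difference of the list. HFR1, an HLH factor that restrains PIFs, stood at 188 CPM in both libraries of WT dark, 233 and 228 in phyB red and 183 in both of WT red.

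Of the PIF transcripts, PIF1, PIF4, PIF5, PIF7 and PIF8 rose against darkness, and PIF3 and PIF6 were not called (edgeR adjusted p = 0.888 and 0.0922). PIF7 rose from 1.3 and 1.72 to 8.48 and 9.71 CPM, PIF8 from 6.01 and 6.34 to 27.3 and 26.3, and PIF5 from 27.2 and 28.6 to 73.3 and 83.0. PIF7 was the 1 member called lower than WT red, where it stood at 12.9 and 11.7 CPM (−0.43 ± 0.13, edgeR adjusted p = 0.00836), a call lost without WT red replicate 1 (0.148) or phyB replicate 1 (0.106). Positions of the 10 list members with a value ran from −26.9% to 112%.

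Early auxin response genes, which include Aux/IAA repressors, auxin-conjugating GH3 enzymes and SAUR growth proteins, stood mostly above the lit level. Of 37 genes 20 were higher than in WT dark, 8 lower and 9 not called, with a median of 0.28. Of all tested genes 27.5% were higher and 27.1% lower. Against WT red 33 were higher and 0 lower, with a median of 1.14, and 22 lay above the band, 8 within it and 7 were undecided. With the assumed coefficient of variation of 0.1, 20 still lay above it. The members were chosen with earlier results of these data known, so the counts describe this list and not the gene families as a whole. IAA19 was lower than in darkness by −0.38 ± 0.03 (adjusted p = 1.11e-19) and higher than in WT red by 1.25 ± 0.04 (8.61e-57). SAUR15 stood at 4.11 and 6.07 CPM in WT dark, 9.73 and 10.9 in phyB red and 1.92 and 1.88 in WT red, so the mutant was above both wild-type groups (1.03 ± 0.16, 3.94e-09, and 2.44 ± 0.19, 1.26e-22).

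GH3.3, of the GH3 enzymes that conjugate auxin, fell from 21.7 and 22.8 to 9.79 and 9.85 CPM, against 3.89 and 4.26 in WT red, at 48.2% of the way. GH3.2 fell from 21.2 and 19.2 to 12.2 and 11.2 CPM and lay within the band around WT red, at 11 in both libraries. IAA6 fell from 41.7 and 37.9 to 29.9 and 27.7 CPM, against 16.7 and 16.6. SAUR14 rose from 8.37 and 8.38 to 44.0 and 42.2 CPM against 31.7 and 30.9, and DFL1, a further GH3 gene, from 102 and 107 to 163 in both libraries against 129 and 131. Over the 17 members with a position, the median was −8.51% and the range −71.6% to 124%, where a value below 0% lies beyond darkness. SAUR19 to SAUR24 are near-identical neighbours that may share reads.

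Auxin synthesis genes had a median near 0. Of 8 tested genes 2 rose, 2 fell and 4 were not called (median −0.07). These counts were near the background, where 27.5% of all tested genes rose and 27.1% fell. TAR2, a tryptophan aminotransferase, rose from 2.25 and 2.69 to 9.67 and 9.26 CPM, close to 8.60 and 8.15 in WT red. YUC8, a flavin monooxygenase that completes auxin synthesis and is a PIF target, stood at 12.6 in both libraries of WT dark, 15.7 and 18.7 in phyB red and 8.55 and 8.15 in WT red. It was the only member above the band (1.05 ± 0.12, adjusted p = 7.35e-14). TAA1, another aminotransferase, fell from 13.6 and 14.1 to 10.3 and 10.4 CPM. The fall of YUC6 from 13.7 and 13.3 to 11 in both libraries (−0.29 ± 0.11, 0.0203) was lost without WT dark replicate 1 (0.0665), phyB replicate 1 (0.0588) or phyB replicate 2 (0.0884).

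**Figure D3:**
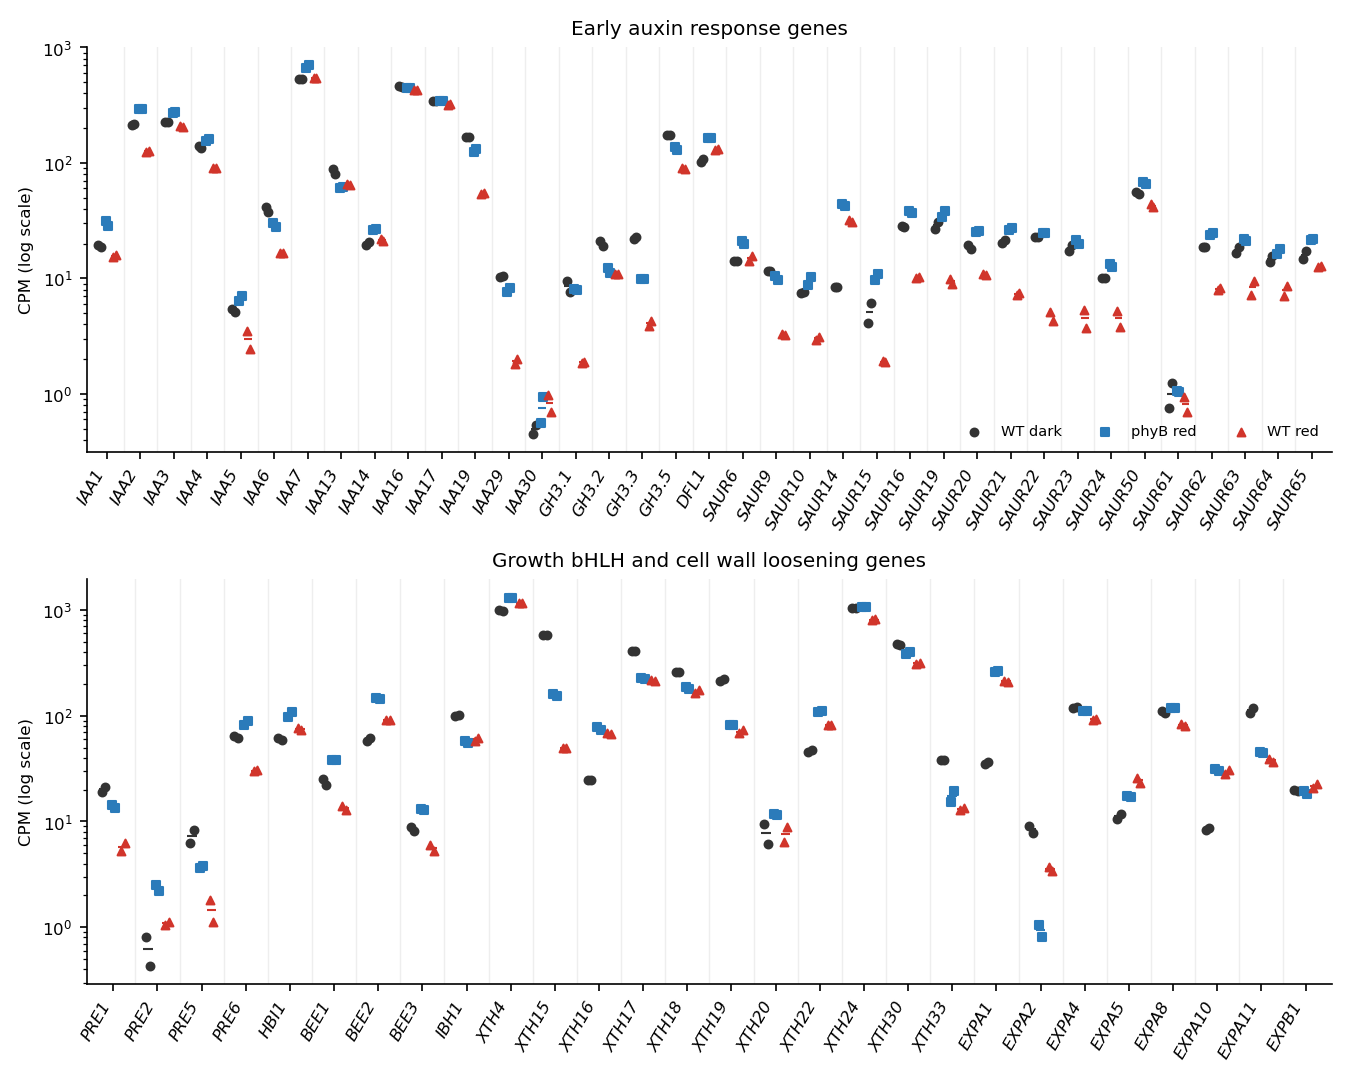
CPM (log scale) of 37 early auxin genes (top) and of the tested growth bHLH and cell wall genes (bottom) in the 6 libraries, with a line at each group mean of 2 libraries. phyB red (squares) lies near or above WT dark (circles) and above WT red (triangles) for most SAUR genes, for PRE6 and for the BEE genes, whereas XTH17, XTH19 and EXPA11 lie near WT red and XTH15 lies between the groups.

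Growth-promoting bHLH genes stood above the lit wild type, and their inhibitor stood at its level. Of 9 tested genes 6 rose and 3 fell against WT dark (median 0.61), and 8 were higher than WT red (median 1.19), with 6 above the band. PRE6, an atypical HLH protein that frees growth factors from inhibition, stood at 64.0 and 61.4 CPM in WT dark, 81.9 and 88.5 in phyB red and 29.7 and 30.4 in WT red. It was above both (0.45 ± 0.05, adjusted p = 1.46e-15, and 1.51 ± 0.06, 6.18e-53). BEE2, a brassinosteroid-induced bHLH gene, rose from 57.5 and 61.9 to 147 and 145 CPM, against 92.0 and 91.1. PRE1 fell from 19.1 and 21.3 to 14.3 and 13.4 CPM and PRE5 from 6.26 and 8.27 to 3.62 and 3.78, both above WT red, at 30.1% and 42.3% of the way.

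IBH1, which binds PRE and HBI1 proteins and blocks growth, fell from 99.9 and 102 to 57.4 and 55.6 CPM, against 57.9 and 62.0 in WT red (within the band, −0.08 ± 0.05, edgeR adjusted p = 0.224). HBI1 rose from 61.2 and 59.4 to 98.0 and 108 CPM against 76.6 and 73.4, within the band. PRE2 rose from 0.802 and 0.430 to 2.49 and 2.2 CPM, and its excess over WT red (1.11 ± 0.33, 0.00611) was lost without WT red replicate 1 (0.074).

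Cell wall loosening genes divided between the patterns. Of 19 XTH and expansin genes 9 rose, 9 fell and 1 was not called against WT dark (median −0.05). Of all tested genes 27.5% rose and 27.1% fell. Around WT red 13 lay within the band, beside 70.4% of all tested genes, 1 above, 1 below and 4 undecided. By the test 14 were higher than WT red and 2 lower (median 0.24), beside 13.1% and 14.1% of all tested genes. XTH15 stood at 578 and 581 CPM in WT dark, 160 and 154 in phyB red and 49.1 and 49.8 in WT red. It fell 3.69-fold against darkness and stayed 1.67 ± 0.04 above WT red (adjusted p = 1.33e-72), at 53.0% of the way. XTH19 stood at 214 and 221, 81.3 and 82.1, and 69.1 and 72.7 CPM, at 87.3%. EXPA1, an expansin that rose with light, stood at 34.7 and 36.9, 260 and 264, and 214 and 209 CPM.

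EXPA10 and XTH16 rose to the WT red band, from 8.32 and 8.59 to 31.1 and 30.1 CPM and from 24.8 and 24.6 to 78.7 and 73.6. EXPA2, an expansin known from germinating seeds, stood at 9.12 and 7.73 CPM in WT dark, 1.06 and 0.809 in phyB red and 3.73 and 3.39 in WT red. It was below both wild-type groups, by −3.20 ± 0.23 against WT dark (adjusted p = 7.16e-27) and with an adjusted p of 7.62e-10 against WT red.

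Of 23 gibberellin, brassinosteroid and ethylene genes 10 rose, 12 fell and 1 was not called against WT dark (median −0.10). Of all tested genes 27.5% rose and 27.1% fell. Against WT red 15 were higher and 0 lower (median 0.40), beside 13.1% and 14.1% of all tested genes, with 3 above the band. GA20OX1, a gibberellin synthesis enzyme, stood at 19.5 and 17.9 CPM in WT dark, 39.0 and 40.1 in phyB red and 22.1 and 22.8 in WT red, so its rise was seen against both (1.08 ± 0.08, adjusted p = 8.74e-27, and 0.82 ± 0.08, 2.81e-18). GA20OX2 stood at 6.71 and 7.41, 13.6 and 13.7, and 9.53 and 8.34 CPM. GA2OX1, which inactivates gibberellins, stood at 0.852 and 0.967, 19.1 and 18.6, and 12.0 and 12.6 CPM, 20.7-fold above darkness.

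Ethylene genes that fell ended at different levels. ACS5, which makes the ethylene precursor and is active in dark-grown seedlings, fell from 27.0 and 27.6 to 6.55 and 7.46 CPM against 5.54 and 5.14 in WT red, at 83.4% of the way. Its excess over WT red (0.40 ± 0.15, edgeR adjusted p = 0.0304) missed the threshold when either WT red library (0.0741 and 0.161) or phyB replicate 2 (0.318) was left out. ACS8, from the same family, fell from 6.91 and 7.46 to 3.24 and 3.51 CPM but stayed far above 0.622 and 0.752 in WT red (2.31 ± 0.30, 6.07e-11), at 32.2%. HLS1, which shapes the apical hook, fell from 12.3 and 13.2 to 4.55 and 4.81 CPM, at 73.3%, with its excess over WT red (0.55 ± 0.19, 0.0189) lost without WT red replicate 1 (0.341) or phyB replicate 2 (0.135). ACO1, the ethylene-forming oxidase, fell from 10.2 and 10.5 to 3.06 and 3.69 CPM. ACS4, below 1.5 CPM in every library, was the third member above the band (3.23, 2.74e-06).

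**Figure D4:**
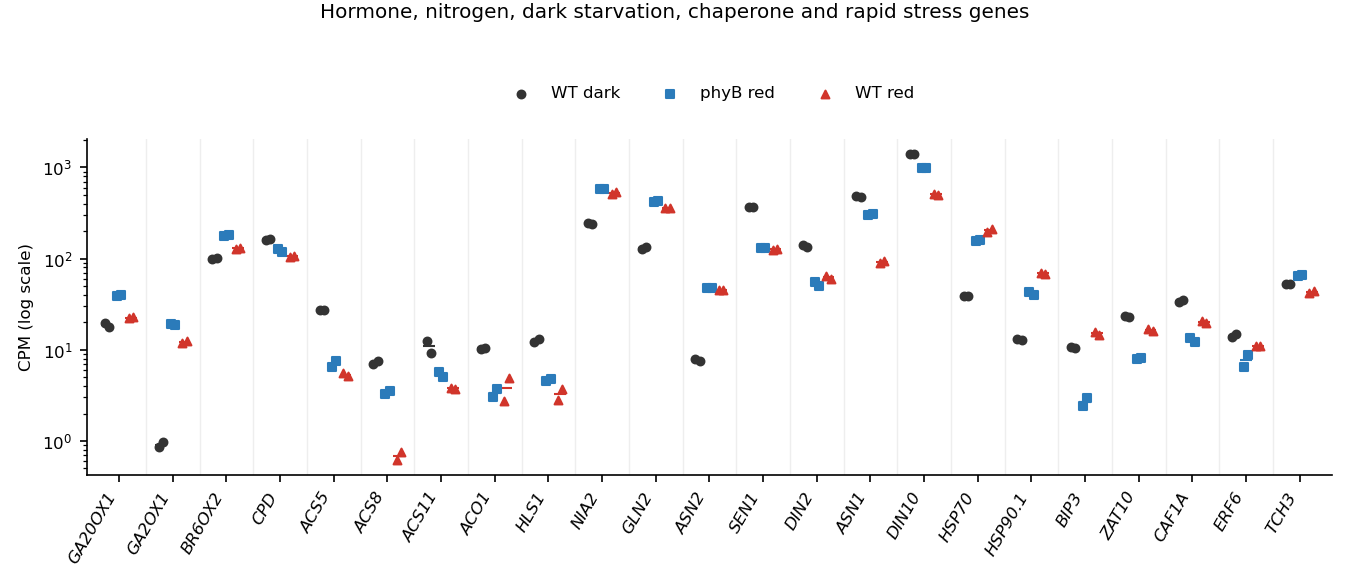
CPM (log scale) of 23 hormone, nitrogen, dark starvation, chaperone and rapid stress genes in the 6 libraries, with a line at each group mean of 2 libraries. SEN1 and DIN2 lie at the WT red level in phyB red, ASN1 and DIN10 lie between the groups, and BIP3, ZAT10 and CAF1A are lower in phyB red than in both wild-type groups.

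CHS and F3H stood at the lit level, and PAP1, LDOX and UGT79B1, of the anthocyanin branch, lay below it. Of 17 tested genes 13 rose, 0 fell and 4 were not called (median 1.61), and 9 lay within the band around WT red, 3 below it and 5 were undecided. CHS, the entry enzyme, stood at 3.06 and 2.58 CPM in WT dark, 122 and 127 in phyB red and 109 and 112 in WT red (44.3-fold above darkness, 103% of the way). F3H, which acts further down, rose from 0.802 and 1.18 to 24.1 and 22.6 CPM, against 20.9 and 19.2. FLS1, flavonol synthase, rose from 0.601 and 0.215 to 6.61 and 8.54 CPM, a log2 rise of 4.19 that ranged from 3.64 to 5.10 without one WT dark library. It was lower than in WT red at 10.8 and 9.91 (−0.43 ± 0.14, edgeR adjusted p = 0.0111), a call lost without WT red replicate 1 (0.134) or phyB replicate 1 (0.216). CHIL, a helper of chalcone synthase, rose from 2.05 and 1.45 to 21.5 and 20.6 CPM.

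The 3 genes below the band stood under 4 CPM in every library. PAP1, a MYB activator of anthocyanin genes, stood at 0.601 and 1.24 CPM in WT dark, 1.81 and 0.540 in phyB red and 3.94 and 3.82 in WT red (−1.84 ± 0.29 against WT red, adjusted p = 6.73e-08). Its phyB libraries stood apart, and the log2 difference from WT red was −2.83 without phyB replicate 1 and −1.10 without phyB replicate 2. LDOX, anthocyanidin synthase, had 0 reads in WT dark, 0.811 and 0.809 CPM in phyB red and 2.95 and 1.76 in WT red. It was at least 10.4-fold higher than darkness at a floor of 3 reads over both libraries. Its difference from WT red (−1.56 ± 0.33, 6.2e-05) was lost without WT red replicate 1 (0.0569). UGT79B1, an anthocyanin glycosyltransferase at 0.125 and 0.674 CPM against 1.3 and 1.88 (−1.82 ± 0.45, 0.000617), lost its call without phyB replicate 1 (−1.21, 0.057) and was at −3.58 without phyB replicate 2.

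Clock genes lay within the 1.5-fold band around WT red in all cases but LUX. Of 24 genes 14 rose, 6 fell and 4 were not called against WT dark (median 0.32), and 23 lay within the band with 1 undecided. Of all tested genes 27.5% rose, 27.1% fell and 70.4% lay within the band. By the test 7 were lower than WT red and 1 higher (median −0.08), beside 14.1% and 13.1% of all tested genes. PRR9, a light-induced morning pseudo-response regulator, stood at 5.96 and 4.73 CPM in WT dark, 13.4 and 14 in phyB red and 13.5 and 14.6 in WT red. CCA1, the morning MYB factor, stood at 58.2 and 57.6, 56.3 and 55.3, and 63.0 and 63.8 CPM. It was not called against darkness (−0.06 ± 0.05, edgeR adjusted p = 0.366) and was lower than WT red (−0.19 ± 0.05, 0.00222). Its partner LHY fell from 79.0 and 73.8 to 47.0 and 46.8 CPM. LNK1, a coactivator, rose from 36.7 and 36 to 115 and 114 CPM, against 123 and 131 in WT red. ELF4, of the evening complex, rose from 6.31 and 7.46 to 17 in both libraries, against 22.2 and 22.4. Both were called lower than WT red (−0.14 ± 0.04, edgeR adjusted p = 0.00217, and −0.37 ± 0.09, 0.000891), and LNK1 lost that call without WT red replicate 2.

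The undecided clock gene was LUX, the DNA-binding member of the evening complex. It stood at 52.6 and 56.2 CPM in WT dark, 31.1 and 31.5 in phyB red and 49.7 and 46.8 in WT red, below both (−0.80 ± 0.06, adjusted p = 1.39e-24, and −0.63 ± 0.06, 2.77e-16). Its homologue BOA fell from 30.9 and 32.0 to 14.3 and 13.2 CPM and lay within the band around WT red, at 16.1 and 14.4. LNK2 was the 1 clock gene called higher than WT red, at 172 and 166 against 141 and 150 CPM (0.22 ± 0.03, 1.41e-08).

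Genes of dark starvation and nitrogen assimilation separated into those that reached the lit level and those that did not. Of 9 genes 5 rose and 4 fell, and 7 lay within the band around WT red and 2 above it. ASN1, the dark-induced asparagine synthetase, stood at 485 and 478 CPM in WT dark, 302 and 308 in phyB red and 90.2 and 95 in WT red. It fell 1.58-fold against darkness and stayed 1.72 ± 0.03 above WT red (adjusted p = 1.71e-86), at 27.7% of the way. DIN10, a dark-inducible gene of raffinose metabolism, stood at 1390 and 1401, 987 and 980, and 507 and 504 CPM, at 34.5%. SEN1, another dark-induced gene, stood at 371 in both libraries, 131 and 132, and 124 and 128 CPM, at 96.3%.

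DIN2, a dark-induced beta-glucosidase, fell from 141 and 135 to 55.8 and 50.4 CPM, against 65 and 60 in WT red (−0.24 ± 0.05, edgeR adjusted p = 4.72e-05, and 0.0553 without phyB replicate 2). The light-induced asparagine synthetase ASN2 rose from 7.97 and 7.46 to 47.1 and 47.6 CPM, against 44.8 and 45.0. The nitrate reductase NIA2 rose from 246 and 241 to 576 and 577 CPM, against 516 and 533, and the plastid glutamine synthetase GLN2 from 127 and 133 to 421 and 430, against 358 and 360.

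Chaperone genes tended to stand lower than in the lit wild type. Of 14 tested heat shock and ER chaperone genes 5 rose, 4 fell and 5 were not called against WT dark (median 0.55). Of all tested genes 27.5% rose and 27.1% fell. Against WT red 0 were higher and 9 lower (median −0.33), beside 13.1% and 14.1% of all tested genes. Without phyB replicate 1 the test called 2 members lower than WT dark. HSP70 stood at 38.5 and 38.9 CPM in WT dark, 154 and 159 in phyB red and 198 and 209 in WT red. HSP90.1 stood at 13.2 and 12.7, 42.5 and 39.8, and 69.9 and 68.0 CPM, below the band (−0.75 ± 0.06, adjusted p = 1.17e-24) at 69.2% of the way. HSFA2, a heat stress transcription factor, rose from 0.751 and 0.913 to 2.87 and 1.66 CPM, and its difference from WT red (−0.94 ± 0.23, 0.00067) was lost without WT red replicate 1 (0.0555) or phyB replicate 2 (0.17).

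BIP3, the stress-induced ER chaperone, fell below both wild-type groups, with 10.8 and 10.4 CPM in WT dark, 2.43 and 2.97 in phyB red and 15.7 and 14.7 in WT red (−1.95 ± 0.16, adjusted p = 7.06e-22, and −2.47 ± 0.15, 7.81e-31). HSP17.4, at 1.37 and 1.08 CPM, was the third gene below the band. The count of 3 below became 5 without phyB replicate 1, 1 without phyB replicate 2, and 2 without WT red replicate 1 or with DESeq2. HSFA7A fell from 70.9 and 71.0 to 60.1 and 58.9 CPM, and the fall of HSFA7B from 2.91 and 2.74 to 1.06 and 1.80 CPM (−0.93 ± 0.28, 0.00305) was lost without phyB replicate 1 (0.0841).

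Touch and rapid stress genes, which respond to handling within minutes, were mostly lower in phyB red than in either wild-type group. Of 13 genes 2 rose and 8 fell against WT dark (median −0.60), and 2 were higher and 10 lower than WT red (median −0.50), with 1 below the band and 9 undecided. Without WT red replicate 1 the count below the band was 2. ZAT10, a zinc-finger factor, stood at 23.6 and 23.1 CPM in WT dark, 7.92 and 8.09 in phyB red and 16.7 and 16.0 in WT red (−1.54 ± 0.10, adjusted p = 6.59e-29, and −1.03 ± 0.11, 1.26e-14). CAF1A, an mRNA deadenylase, stood at 33.5 and 35.5, 13.5 and 12.2, and 20.5 and 19.5 CPM. ERF6 fell from 13.8 and 14.8 to 6.49 and 8.86 CPM, and its difference from WT red (−0.48 ± 0.13, 0.0016) was lost without phyB replicate 1 (0.123). The genes that rose were the calmodulin-like TCH3, from 52.4 in both libraries to 64.9 and 66.5 CPM, and TCH2, from 42.9 and 43.5 to 50.9 and 49.3. Both were called higher than WT red, and TCH2 lost that call without WT red replicate 2 (edgeR adjusted p = 0.163) or phyB replicate 1 (0.0949). What part handling has in other differences was not tested.

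Seed storage and glucosinolate lists were mostly at the limit of detection. Of 11 seed genes 8 were tested, and 1 rose and 1 fell. EM6, a late embryogenesis protein, rose from 3.81 and 3.97 to 6.17 and 6.20 CPM (0.67 ± 0.17, adjusted p = 0.000251), against 8.65 and 8.34 in WT red. The gene that fell, CRA1, stayed below 1 CPM, and no seed gene was called lower without WT dark replicate 2 or phyB replicate 1. Of 7 glucosinolate genes 3 were tested. SUR1, a C-S lyase, fell from 47.3 and 47.7 to 36 and 33.5 CPM, and the MYB factor MYB28 rose from 1.2 and 1.07 to 3.37 and 2.70.

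Markers of organs and cell types moved with the comparison. The summed level of 10 root markers was 110 to 114 CPM in WT dark, 86.8 to 92.2 in phyB red and 95.5 to 97.2 in WT red. RHD6, the regulator of root hair identity, stood at 10.4 and 8.75, 0.936 and 0.989, and 3.99 and 3.51 CPM. Of the 10 root markers 5 fell and 0 rose against WT dark, beside 27.1% and 27.5% of all tested genes. The 6 stomatal lineage markers summed to 4.91 to 5.85, 16.2 to 16.5 and 13.6 to 13.9 CPM, with EPF2 at 0 reads in WT dark. The 4 shoot apex markers summed to 93.2 to 95.8, 127 to 133 and 125 to 126 CPM, mostly from KNAT1, with WUS at 0 in phyB red. Their part in the changes of the other lists was not tested.

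The largest changes among genes of at least 5 CPM in the higher of WT dark and phyB red included antenna genes and loci without a symbol. Among the 10 largest rises were SDR1, a short-chain dehydrogenase, from 0 reads to 156 and 240 (at least 133-fold higher at the 3-read floor), and CIPK20, a protein kinase, from 0 to 72 and 131 reads (at least 68.2-fold). AT1G26761 had 2 and 0 reads in WT dark and 207 and 275 in phyB red (243-fold, 95% counting interval 66.9 to 2010). AT5G48490, the aldolase gene FBA5 and the serine carboxypeptidase-like gene scpl10 rose from below 0.3 CPM to 39.9 and 38.6, 11.7 and 15.9, and 14.2 and 13.8 CPM. Without one WT dark library the log2 rise of AT1G26761 ranged from 6.86 to 10.89, that of FBA5 from 6.36 to 7.92 and that of scpl10 from 6.05 to 7.83. LHCB1.1, LHCB1.4 and LHCB2.2 were also among them. CIPK20 and AT5G48490 lay above the band around WT red (1.19 on the log2 scale, edgeR adjusted p = 1.91e-05, and 0.86, 9.18e-18).

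Among the 10 largest falls, GRF7, annotated as a growth-regulating factor, fell from 23.1 and 20.1 to 0.748 and 0.585 CPM, against 0.932 and 0.564 in WT red. BETA-TIP, a tonoplast water channel known from seeds, fell from 22.1 and 18.8 to 1.87 and 1.3 CPM, and the protein kinase gene SNRK2.5 from 80.1 and 82.3 to 8.92 and 8.59, against 7.93 and 9.15. AT5G02540 fell from 26.1 and 28.8 to 2.68 and 1.93 CPM. AT2G16190 fell from 5.11 and 5.16 to 0.187 and 0.540 CPM while WT red stood at 3.83 and 3.76, and its log2 change of −3.69 was −3.23 without phyB replicate 1 and −4.73 without phyB replicate 2. BBX23, RHD6 and EXPA2, described above, completed the list with the neighbouring loci AT3G55900 and AT3G55910.

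Those 2 loci and 1 of the largest rises separated phyB red from both wild-type groups. AT3G55900 had 103 and 100 reads in WT dark, 98 and 88 in WT red and 0 in both phyB libraries, which is at least 67.1-fold lower than WT dark. AT3G55910 had 114 and 103, 104 and 83, and 0 and 3 reads (71.8-fold lower than WT dark, 95% counting interval 24.2 to 351). Its fitted log2 change of −6.05 was −5.31 without phyB replicate 1 and −9.70 without phyB replicate 2, where no reads were left. AT3G29633 had 1 and 1 reads in WT dark, 2 and 1 in WT red and 108 and 175 in phyB red (143-fold higher than WT dark, interval 39.1 to 1180).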

How the data were processed

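Poly(A) RNA of whole seedlings was sequenced, 2 libraries in each of 4 groups (WT dark, WT red, phyB red and a phyA phyB double mutant). Per the file headers, each deposited file gives a read count and an RPKM per transcript model. Per the submitters' processing notes the genome was TAIR10. For the aligner, the counting tool, strandedness and multiply mapped reads, nothing is stated in the labels or files, so overlapping, antisense and near-identical genes may share reads. The authors' RPKM values were not tested. The deposited counts were analysed with edgeR 4.0.16 in R 4.3.3: TMM scaling, filterByExpr (minimum count 10), a robust quasi-likelihood fit with 1 coefficient per group over all 8 libraries, and Benjamini-Hochberg adjustment over 20716 genes. All p-values are two-sided. CPM uses TMM-scaled library sizes. On counts simulated for phyB red versus WT dark over 20493 genes, 93 of 100 genes changed 1.5-fold and 100 of 100 changed 2-fold were called, with 6 false calls. The changed genes were drawn from those above 2 CPM, and every gene had the common coefficient of variation of 1.59%. These counts therefore check the procedure and do not give its power or false calls on the real libraries or on weaker genes.

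The 24 gene lists (396 loci, 383 tested), their members and the tests were chosen with earlier results of these data known. They are described by counts and medians, with no list test. Named genes were a fixed set of landmarks, per list the 3 largest rises and falls among called genes of at least 1 CPM and the largest difference from WT red each way, and the 10 largest rises and falls among genes of at least 5 CPM. BBX28, PAR1, HAT1, HAT2, HAT3, ATHB-4, LHCB2.3, XTH17, EXPA11, ACS4, LDOX, UGT79B1, HSP17.4, DIN10, CRA1, KNAT1, PIF1, PIF3, PIF4 and PIF6, and some genes drawn in the plots, were named after their values were seen. Locus names came from a RefSeq table (26719 of 27416 loci matched). Promoter windows, planned for a ready-made table, were cut from the RefSeq genome and annotation TAIR10.1 by locus tag. Counting intervals and floors cover counting error only.

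Alternatives were RLE and upper-quartile scaling, no filter, only the libraries compared, a replicate block, an assumed coefficient of variation of 0.1, a test against a 1.5-fold change, DESeq2 1.42.0 and leaving out each library. Between groups, same-numbered replicates deviated with correlations of −0.014 to 0.0078, so the numbers were not taken to pair samples. Replicate libraries differed by more than counting noise (chi-square 1.35 to 1.47 per degree of freedom).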

Additional observations from a re-analysis of the deposited data

How the results depend on the processing

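RLE scaling, no filter on low counts and the fit of the compared libraries alone kept every count of called genes within 1.5 times of the reported one. Upper-quartile scaling called 4885 genes higher and 6576 lower than WT dark, 42.6% higher against 50.3%, and shifted the median log2 change of all genes to −0.05. Replicate numbers did not pair the samples, and with the replicate block 5686 and 5617 genes were called against WT dark and 2731 and 2931 against WT red. An assumed coefficient of variation of 0.1 called 3638 genes higher and 2815 lower than WT dark (56.4% higher) and 649 and 672 against WT red. The test against a 1.5-fold change called 1869 and 854 (68.6% higher) and 187 and 192. DESeq2 called 4422 and 4606 against WT dark and 1739 and 1912 against WT red. Leaving out 1 library gave 4626 to 5157 higher and 4785 to 5474 lower than WT dark, and 1989 to 2266 higher and 2245 to 2480 lower than WT red. Which property of each setting lowered a count was not tested. With the assumed coefficient of 0.1, calls higher than WT red went from 24 to 7 for light harvesting, from 28 to 0 for photosystem, from 23 to 3 for Calvin cycle and from 20 to 2 for tetrapyrrole genes.

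Named genes whose estimate changed sign, none of them called with all libraries against that reference, were as follows. CP12-1 against WT dark was −0.02 with upper-quartile scaling and −0.01 to 0.04 when 1 library was left out, and PAP1 ranged from −0.74 to 0.99 and was called without phyB replicate 2 (0.034). UGT79B1 against WT dark ranged from −0.30 to 2.07 and was called without phyB replicate 1 (0.0132). Against WT red, PRR9 ranged from −0.09 to 0.03, GRF7 from −0.51 to 0.21, SNRK2.5 from −0.07 to 0.14, scpl10 from −0.28 to 0.10 and BBX30 from −0.52 to 0.07. TRXZ ranged from −0.09 to 0.14, EXPA10 from −0.01 to 0.10, ACO1 from −0.52 to 0.31, HSFA7B from −0.33 to 0.43 and HSFA7A from −0.11 to 0.02. The cause was not tested. With 2 libraries a group and 15926547 to 22116924 reads, BBX23, with 2 reads in phyB red and 6 in WT red, could not be placed relative to the band.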

Other observations

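AT3G55900, AT3G55910 and AT3G29633, which set the phyB libraries apart from both wild-type groups, did not do so in the double mutant. There AT3G55900 had 102 and 93 reads, AT3G55910 98 and 102, and AT3G29633 2 and 1.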
